A study of Homo sapiens with 9 samples.

Results

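The 7 dual-specificity phosphatase genes *DUSP1*, *DUSP2*, *DUSP4*, *DUSP5*, *DUSP6*, *DUSP10* and *DUSP16* were described through the accessible chromatin called around them in Jurkat cells (Clone E6-1), a line derived from a human T cell leukaemia. FAIRE (formaldehyde-assisted isolation of regulatory elements) recovers nucleosome-free DNA, which then stands out as peaks of sequencing reads. Peaks of 4 lists, 1 library each, were joined wherever they overlapped or touched, and a merged region was assigned to a gene when it overlapped the gene body or lay within 50 kb of its TSS. This gave 42 merged regions for the 7 genes, of 40703 on the autosomes, X and Y, and no region was counted to more than 1 member. The TSS was the upstream end of the annotated gene record, and further annotated starts of a gene were used only in an alternative. The series held 9 samples: the non-stimulated state (NS), cells stimulated with PMA and ionomycin for 4 h by the labels and 2 h by the study's methods (ST), cells cultured for 1 day after the stimulus was washed away (SW) and cells then stimulated again for 2 h (RS), each pre-treated with DMSO or with 15 μM rottlerin for 1 h, and a total input. PMA activates protein kinase C and rottlerin was used as its inhibitor. The 4 lists were labelled NS DMSO, SW DMSO, NS rottlerin and SW rottlerin. By these labels the other 5 samples have no list here, but the labels are in doubt, as set out next.

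The labels and the study's methods differ on the cells behind these lists. The methods describe peak calls on cells pre-treated with DMSO (NS, ST, SW, RS), whereas the labels give 2 of the 4 lists to rottlerin-treated cells. The 4 lists merged to 40731 regions, of which 28 lay off the autosomes, X and Y. The methods give the same counts for the pooled peaks of the DMSO samples, so the lists match a pool without rottlerin-treated cells. Which of the 3 lists other than NS DMSO came from ST, SW or RS cells was not settled here. Each list is therefore called by its label, and no difference between lists is read as an effect of stimulation, withdrawal or rottlerin. With 1 library for each label there was no spread between replicates, and no test was made. The lists do not give sequencing depth, and a missing peak says only that none was called at the depth of that library. The lists held 18977 (NS DMSO), 20132 (SW DMSO), 23835 (NS rottlerin) and 30409 (SW rottlerin) peaks. A region within 1 kb of the TSS was found for 8 of 8 T cell marker genes, 0 of 5 B cell markers and 0 of 5 myeloid markers, against 44.9% of coding genes.

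The dual-specificity phosphatases described here remove phosphate from both the threonine and the tyrosine of the activation loop of MAP kinases (ERK, JNK and p38) and so switch them off. Many are themselves transcribed in response to the kinases they inactivate, which makes them negative feedback regulators of the MAP kinase pathways that the T cell receptor and PMA engage. *DUSP1*, *DUSP2*, *DUSP4* and *DUSP5* encode nuclear, inducible phosphatases, *DUSP6* a cytoplasmic one that prefers ERK, and *DUSP10* and *DUSP16* encode phosphatases that prefer JNK and p38.

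Sequences of 5 regions are printed because the description below turns on them. They are the plus strand of GRCh37, read 5′ to 3′, and cover the central 300 bp of a region, except the last, which is the part of the *DUSP5* TSS region upstream of the TSS. Capitals mark letters that matched a searched motif on either strand.
DUSP5, 38.4 kb downstream of the TSS, chr10:112295903-112296202, with RUNX and AP1 letters that share 1 base, then ETS letters: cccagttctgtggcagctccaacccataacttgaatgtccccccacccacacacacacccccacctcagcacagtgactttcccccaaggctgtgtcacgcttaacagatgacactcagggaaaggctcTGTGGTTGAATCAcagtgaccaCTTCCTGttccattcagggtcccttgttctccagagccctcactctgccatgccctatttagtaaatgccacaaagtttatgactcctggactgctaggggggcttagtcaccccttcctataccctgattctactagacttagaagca
DUSP10, 35.8 kb upstream of the TSS, chr1:221951046-221951345, with E-box, ETS and RUNX letters: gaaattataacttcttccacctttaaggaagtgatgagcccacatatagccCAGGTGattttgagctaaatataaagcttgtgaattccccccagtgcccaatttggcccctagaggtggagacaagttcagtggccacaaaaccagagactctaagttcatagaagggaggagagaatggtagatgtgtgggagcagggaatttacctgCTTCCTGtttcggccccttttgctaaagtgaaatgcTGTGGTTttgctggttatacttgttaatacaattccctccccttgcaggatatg
DUSP2, 3.23 kb upstream of the TSS, chr2:96814257-96814556, with AP1 and E-box letters: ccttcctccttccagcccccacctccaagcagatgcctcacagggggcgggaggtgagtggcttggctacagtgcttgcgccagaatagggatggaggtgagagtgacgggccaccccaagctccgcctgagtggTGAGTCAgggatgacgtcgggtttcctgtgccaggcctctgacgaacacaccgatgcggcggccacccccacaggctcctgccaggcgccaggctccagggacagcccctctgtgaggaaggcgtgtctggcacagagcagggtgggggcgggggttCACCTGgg
DUSP1, 5.75 kb downstream of the TSS, chr5:172192295-172192594, with ETS letters: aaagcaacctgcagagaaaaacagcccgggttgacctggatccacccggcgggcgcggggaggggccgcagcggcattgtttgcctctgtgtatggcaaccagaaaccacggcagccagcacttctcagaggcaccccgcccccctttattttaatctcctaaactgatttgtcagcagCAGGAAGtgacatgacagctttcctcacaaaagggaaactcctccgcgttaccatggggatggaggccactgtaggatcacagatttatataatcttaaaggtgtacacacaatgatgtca
DUSP5, upstream part of the TSS region, chr10:112257394-112257664, with EGR letters and 35 CpG: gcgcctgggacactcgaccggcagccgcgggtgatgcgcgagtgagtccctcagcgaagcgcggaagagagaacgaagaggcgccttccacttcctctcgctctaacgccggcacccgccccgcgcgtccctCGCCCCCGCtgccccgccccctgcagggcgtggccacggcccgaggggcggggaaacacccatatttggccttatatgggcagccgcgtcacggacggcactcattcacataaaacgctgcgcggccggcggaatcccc
Each sequence was searched in the genome in pieces of 30 bases. Every piece occurred once.

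Of the 42 regions, 31 (73.8%) had no peak in the list labelled NS DMSO, where 53.5% of all merged regions had none (51.7% of the 34248 regions in the window of any coding gene). No DUSP region was in the NS DMSO list alone, which held alone 7.83% of all regions. A peak in all 4 lists was found at 9 DUSP regions (21.4%, against 26.6% of all regions). A peak in the 3 other lists without one in NS DMSO was found at 6 (14.3%, against 7.08%), and a peak in SW DMSO and SW rottlerin only at 4 (9.52%, against 6.26%). Of the remaining regions, 11 were in SW rottlerin alone (26.2%, against 18.2%) and 7 in NS rottlerin alone (16.7%, against 8.42%). A further 2 were shared by NS rottlerin and SW rottlerin (4.76%, against 8.44%), and 1 by SW DMSO and NS rottlerin (2.38%, against 0.764%). The last 2 were called in NS DMSO with NS rottlerin, and in NS DMSO with SW DMSO and SW rottlerin. Distance from a TSS moved with these shares, with 1 TSS per coding gene and further annotated starts left out. Of DUSP regions over 1 kb from every such TSS, 28 of 35 (80.0%) had no NS DMSO peak, against 59.9% of all such regions. Of those within 1 kb it was 3 of 7 (42.9%), against 25.7%.

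The share without an NS DMSO peak moved with the window and with the length of the lists. Within 20 kb of the TSS or in the gene body it was 56.5% (13 of 23 regions), against 50.8% of regions within that distance of any coding gene. With the 18977 highest-scoring peaks of every list it was 59.3% (16 of 27), against 41.5% of all regions, and without the list labelled SW rottlerin it was 64.5% (20 of 31), against 43.3%. The regions lacking an NS DMSO peak differed widely in strength. The score (10 times the −log10 q-value, decimals dropped) had a median of 27 in the 18 regions called in 1 list only, with a range from 14 to 55, a median of 65 in the 7 called in 2 lists and of 107.5 in the 6 called in all 3 others. Over all regions without an NS DMSO peak the corresponding medians were 31, 52 and 75.

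**Figure D1:**
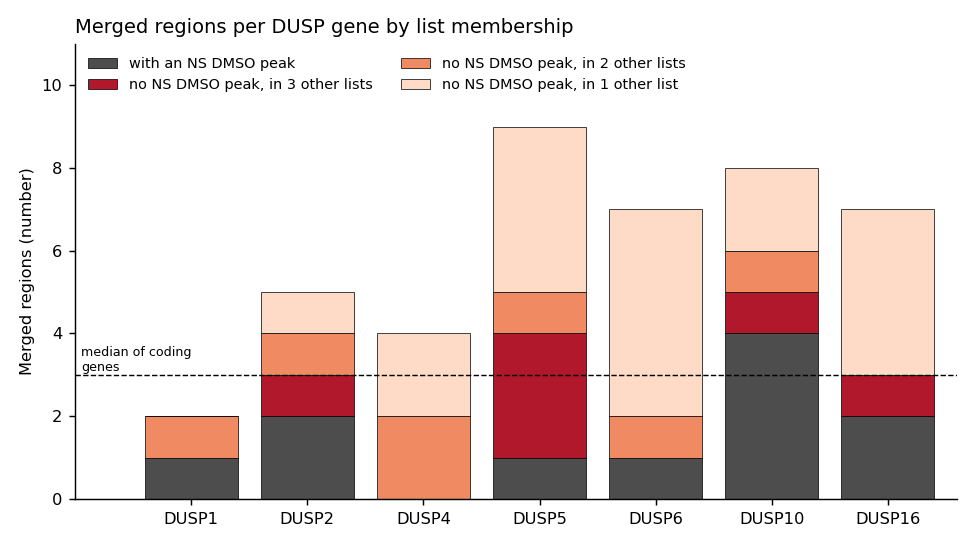
Merged regions per DUSP gene (y axis, number), split by whether the list labelled NS DMSO held a peak and, where it did not, by how many of the 3 other lists did; the dashed line is the median of 3 regions over 20162 coding genes. *DUSP5* has the most regions (9, of which 8 lack an NS DMSO peak) and *DUSP4* has none with an NS DMSO peak.

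Per gene, the members had from 2 (*DUSP1*) to 9 (*DUSP5*) regions, and 6 of 7 had more than the median coding gene, which had 3. All 7 had at least 1 region without an NS DMSO peak, as did 68.0% of 20162 coding genes. *DUSP2*, *DUSP5*, *DUSP10* and *DUSP16* (4 of 7) had a region in the 3 other lists and not in NS DMSO, against 18.3% of coding genes, and 0 of 7 had a region in NS DMSO alone, against 17.6%. The only such *DUSP16* region in the 3 other lists had its midpoint 415 bp from the TSS of *CREBL2*. A region lay within 1 kb of the TSS at 6 of 7 members, against 44.9% of coding genes, and it held an NS DMSO peak at 4 of them (*DUSP2*, *DUSP5*, *DUSP6* and *DUSP10*). Counted by region rather than by gene, 25.7% of all regions within 1 kb of a coding TSS had no NS DMSO peak. By midpoint, 33 regions lay outside coding genes, 8 in introns and 1 in an untranslated exon. The nearest coding TSS belonged to another gene at 5 regions, which are named where they occur. All 5 lacked an NS DMSO peak.

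**Figure D2:**
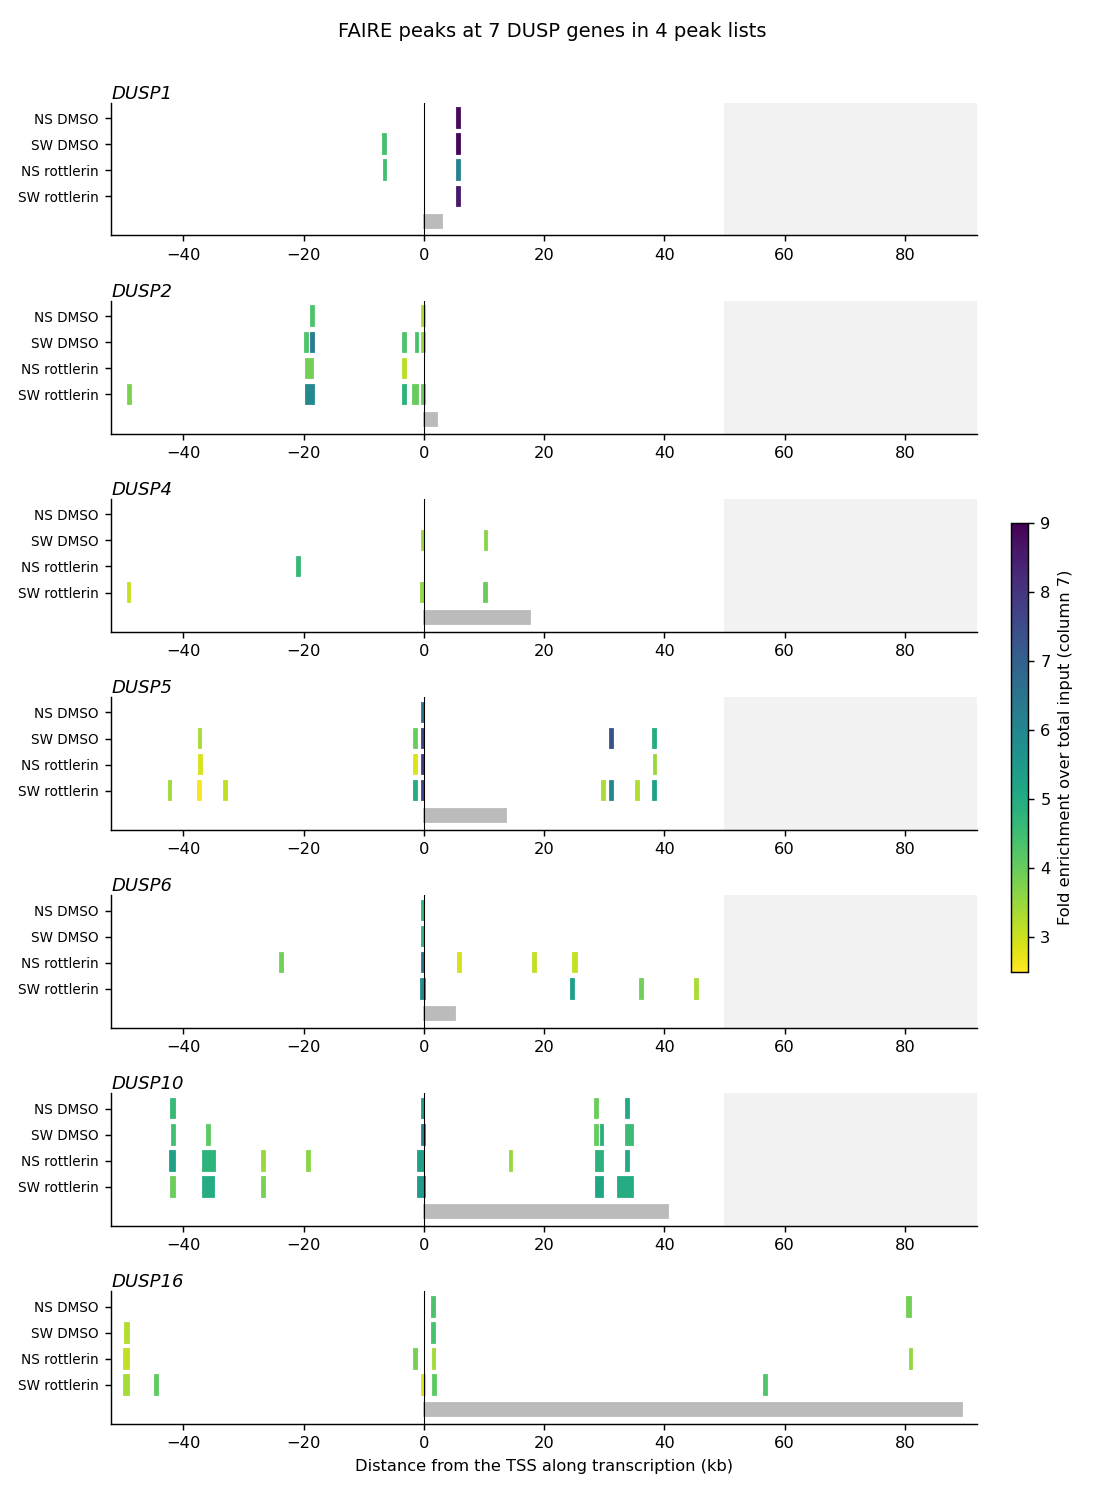
Peaks around each DUSP gene by distance from the TSS along transcription (x axis, kb), 1 lane per list; colour gives the fold enrichment over total input, the grey bar is the gene body, and the shaded part lies outside the window of the gene. Peaks are drawn at least 0.45 kb wide. The NS DMSO lane is empty at *DUSP4*, and at *DUSP5* it holds a single peak at the TSS.

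The inducible nuclear phosphatases are described first. The value given for each list is column 7 of the list, the fold enrichment over total input that the peak caller MACS2 wrote, and where a list had several peaks in a region it is the highest of them. *DUSP5*, which encodes an ERK-specific phosphatase of the nucleus, lies on the plus strand at chr10:112257665-112271291. Its 9 regions were matched or exceeded by 5.42% of coding genes, and its 8 regions without an NS DMSO peak by 1.38%. The TSS region (chr10:112257394-112257719) was called in all 4 lists, with a fold enrichment of 6.66 in NS DMSO, 7.79 in SW DMSO, 7.90 in NS rottlerin and 7.70 in SW rottlerin. NS DMSO was the lowest of the 4, and the other 3 lay close together, at 1.17, 1.19 and 1.16 times its value. With 41 CpG in its central 300 bp and the EGR letters printed above, this region was among the strongest 3.14% of NS DMSO by fold enrichment and 0.514% of SW DMSO.

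Far from the TSS, the strongest *DUSP5* region lay 31.2 kb downstream of it, beyond the end of the gene. It was called in SW DMSO at 7.38 and in SW rottlerin at 6.01, with scores of 182 and 118, and in neither list labelled NS. In the SW DMSO list 0.948% of regions had a fold enrichment as high, and in SW rottlerin 8.12% did. By score these shares were 4.28% and 16.1%. The nearest NS DMSO peak was 31022 bp away. The region at 38.4 kb (chr10:112295858-112296246) was called at 4.99 in SW DMSO, 3.49 in NS rottlerin and 5.27 in SW rottlerin, and its nearest coding TSS was that of *SMC3*, 31390 bp away. A region 1.40 kb upstream of the TSS (chr10:112256113-112256428), inside the long non-coding RNA gene *DUSP5-DT*, showed the same order, with 4.00, 2.85 and 4.99. The region 37.2 kb upstream was weaker, at 3.34 in SW DMSO, 2.90 in NS rottlerin and 2.56 in SW rottlerin, and here SW rottlerin was the lowest. The other 4 regions, 42.2 and 32.9 kb upstream and 29.9 and 35.5 kb downstream, were called in SW rottlerin alone, at 3.14 to 3.41 with scores of 24 to 40, and the last of them was also nearer to *SMC3*.

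*DUSP2* encodes PAC-1, a nuclear phosphatase found in activated lymphocytes, and lies on the minus strand at chr2:96808908-96811179. Its TSS region (chr2:96811106-96811407) was called at 3.30 in NS DMSO, 3.54 in SW DMSO and 3.97 in SW rottlerin and was not called in NS rottlerin. Just upstream, 2 regions lacked an NS DMSO peak. The one at 1.36 kb (chr2:96812178-96812905) was called at 4.40 in SW DMSO and 4.00 in SW rottlerin only, 812 bp from the nearest NS DMSO peak. The one at 3.23 kb (chr2:96814198-96814614) was called at 4.33 in SW DMSO, 3.16 in NS rottlerin and 4.82 in SW rottlerin. Thus the lists labelled SW held 4 and 5 regions at *DUSP2*, and each list labelled NS held 2.

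The region 18.9 kb upstream of *DUSP2* (chr2:96829461-96830782) was called in all 4 lists and had the largest ratio between SW DMSO and NS DMSO among the members. Its fold enrichment was 4.32 in NS DMSO, 6.33 in SW DMSO, 3.89 in NS rottlerin and 5.94 in SW rottlerin, so that both lists labelled SW lay above both labelled NS. The ratio of 1.46 between SW DMSO and NS DMSO was matched or exceeded by 2.09% of the 12550 regions called in both. The peaks were 267 bp wide in NS DMSO, 1174 bp in NS rottlerin and 1312 bp in SW rottlerin, while SW DMSO had a pair of separate peaks here. A last region, 48.9 kb upstream in an intron of *STARD7*, was called in SW rottlerin alone, at 3.78.

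*DUSP4*, which encodes another nuclear phosphatase, lies on the minus strand at chr8:29190581-29208201. None of its 4 regions had an NS DMSO peak, and the nearest NS DMSO peaks were 50473 to 109851 bp away. The region 0.179 kb upstream of the TSS was called at 3.49 in SW DMSO and 3.56 in SW rottlerin. The region 10.3 kb into the gene, in an intron, was called at 3.65 and 4.00 in the same lists. Both were thus in the lists labelled SW only, at values below the medians of those lists (4.03 in each). A region 20.8 kb upstream was called in NS rottlerin alone, at 4.66, and one 49.0 kb upstream in SW rottlerin alone, at 3.06.

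*DUSP1* encodes the immediate-early nuclear phosphatase that acts on p38, JNK and ERK, and lies on the minus strand at chr5:172195099-172198198. It had 2 regions and was the member without a region within 1 kb of its TSS in any list. The region 5.75 kb downstream of the TSS, past the end of the gene (chr5:172192254-172192635), held the highest fold enrichment of all members. Its values were 8.85 in NS DMSO, 8.92 in SW DMSO, 6.15 in NS rottlerin and 8.58 in SW rottlerin. NS rottlerin stood apart, at 0.695 times the NS DMSO value, and only 1.96% of the 13702 regions called in both had a ratio as low. By fold enrichment the region was among the highest 0.19% of NS DMSO and 0.0948% of SW DMSO, but 6.55% of NS rottlerin. The other region, 6.48 kb upstream (chr5:172204583-172204768), was called in SW DMSO at 4.41 and in NS rottlerin at 4.47, and in neither NS DMSO nor SW rottlerin.

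*DUSP6* encodes the ERK-specific phosphatase of the cytoplasm and lies on the minus strand at chr12:89741012-89746278. The TSS region (chr12:89746142-89746694) was called at 4.73 in NS DMSO, 4.80 in SW DMSO, 6.53 in NS rottlerin and 5.92 in SW rottlerin. SW DMSO was near NS DMSO, while NS rottlerin and SW rottlerin were higher, at 1.38 and 1.25 times the NS DMSO value. Ratios as high were seen at 6.48% of 13702 and 18.2% of 14037 regions. Its other 6 regions had no peak in NS DMSO or SW DMSO. Regions 23.7 kb upstream and 5.99 and 18.4 kb downstream were in NS rottlerin alone, at 2.90 to 3.88, and regions 36.2 and 45.4 kb downstream in SW rottlerin alone, at 3.92 and 3.35. The region 25.0 kb downstream was called at 3.08 in NS rottlerin and 5.34 in SW rottlerin. The NS rottlerin peak there had a score of 12 and a q-value of 0.0589. The highest score of each of these 6 regions ran from 14 to 74, against medians of 57 and 53 in the NS rottlerin and SW rottlerin lists.

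**Figure D3:**
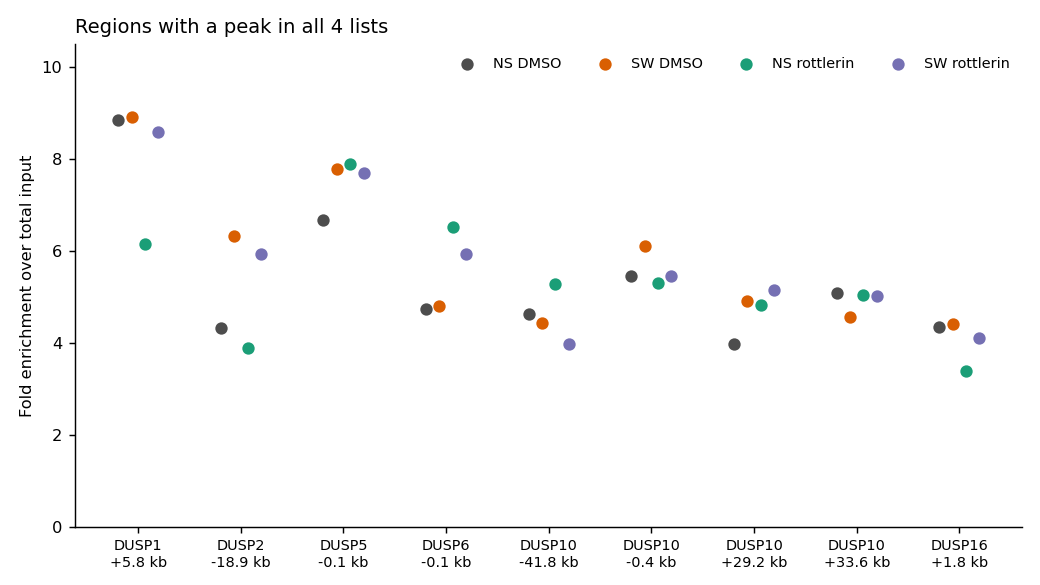
Fold enrichment over total input (y axis, linear from 0) at the 9 DUSP regions with a peak in all 4 lists, 1 point per list and 1 library per point, so without error bars. *DUSP1* at 5.75 kb shows NS rottlerin (6.15) below the other lists, and *DUSP2* at 18.9 kb upstream shows SW DMSO (6.33) and SW rottlerin (5.94) above the NS lists.

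*DUSP10* and *DUSP16*, the members that prefer JNK and p38, are also the longest genes of the 7. *DUSP10* lies on the minus strand at chr1:221874766-221915431 and had 8 regions, of which 4 were called in all 4 lists and 4 had no NS DMSO peak. It held 4 of the 5 DUSP regions of at least 1000 bp (11.9% of DUSP regions, against 5.26% of all regions), the fifth being *DUSP2* at 18.9 kb. The TSS region (chr1:221915247-221916412) was called at 5.45 in NS DMSO, 6.11 in SW DMSO, 5.29 in NS rottlerin and 5.45 in SW rottlerin, a narrow span. The region 35.8 kb upstream (chr1:221950170-221952220) had no NS DMSO peak and was called at 4.11 in SW DMSO, 4.81 in NS rottlerin and 4.99 in SW rottlerin. Its peak was 265 bp wide in SW DMSO, but 2051 bp in NS rottlerin and 1913 bp in SW rottlerin. The nearest NS DMSO peak was 4655 bp away. It belongs to the region 41.8 kb upstream, which was called in all 4 lists at 4.63, 4.44, 5.28 and 3.97, in the order NS DMSO, SW DMSO, NS rottlerin and SW rottlerin.

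A further annotated *DUSP10* start lies 30273 bp downstream of the TSS. Near it, an intronic region 29.2 kb from the TSS (chr1:221885648-221886779) was called at 3.97 in NS DMSO, 4.91 in SW DMSO, 4.83 in NS rottlerin and 5.15 in SW rottlerin. NS DMSO was lowest, but its peak did not overlap the strongest SW DMSO peak of the region, and the SW DMSO peak that it did overlap stood at 4.03, close to the NS DMSO value. A second intronic region, 33.6 kb from the TSS (chr1:221880612-221883046), had 5.07, 4.56, 5.05 and 5.01 in the same order. Its widths differed far more than its fold enrichment, from 279 bp in NS DMSO to 2435 bp in SW rottlerin. The weakest regions were at 26.7 kb upstream, called at 3.50 in NS rottlerin and 3.82 in SW rottlerin, and at 19.1 kb upstream and 14.5 kb downstream, called in NS rottlerin alone at 3.67 and 3.51.

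*DUSP16* lies on the minus strand at chr12:12626216-12715797 and had 7 regions, 5 of them without an NS DMSO peak. At its TSS, which carries 45 CpG in 300 bp, a peak was called in SW rottlerin alone, at 2.83 with a score of 16. The region with the most calls was 1.78 kb downstream, in an untranslated exon, at 4.34 in NS DMSO, 4.40 in SW DMSO, 3.39 in NS rottlerin and 4.11 in SW rottlerin. NS rottlerin was the lowest there, at 0.782 times the NS DMSO value. A region in an intron, 80.7 kb from the TSS, was called in both lists labelled NS and in neither labelled SW, at 3.89 in NS DMSO and 3.55 in NS rottlerin. Of all regions, 2.07% had that pattern. The opposite pattern, in both SW lists and in neither NS list, was seen at *DUSP2*, *DUSP4* and *DUSP5* (3 of 7 members, against 16.4% of coding genes). The region 49.4 kb upstream was called at 3.26 in SW DMSO, 3.12 in NS rottlerin and 3.38 in SW rottlerin, but its midpoint lay 415 bp from the TSS of *CREBL2*. The region 44.4 kb upstream (SW rottlerin alone, 4.09) was also nearest to *CREBL2*. The remaining regions were called in a single list, at 1.35 kb upstream in NS rottlerin (3.88) and at 56.8 kb in SW rottlerin (4.29). The midpoint of the latter lay in an intron, but the region, 56643 to 56953 bp from the TSS, spans a further annotated *DUSP16* start at 56676 bp.

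**Figure D4:**
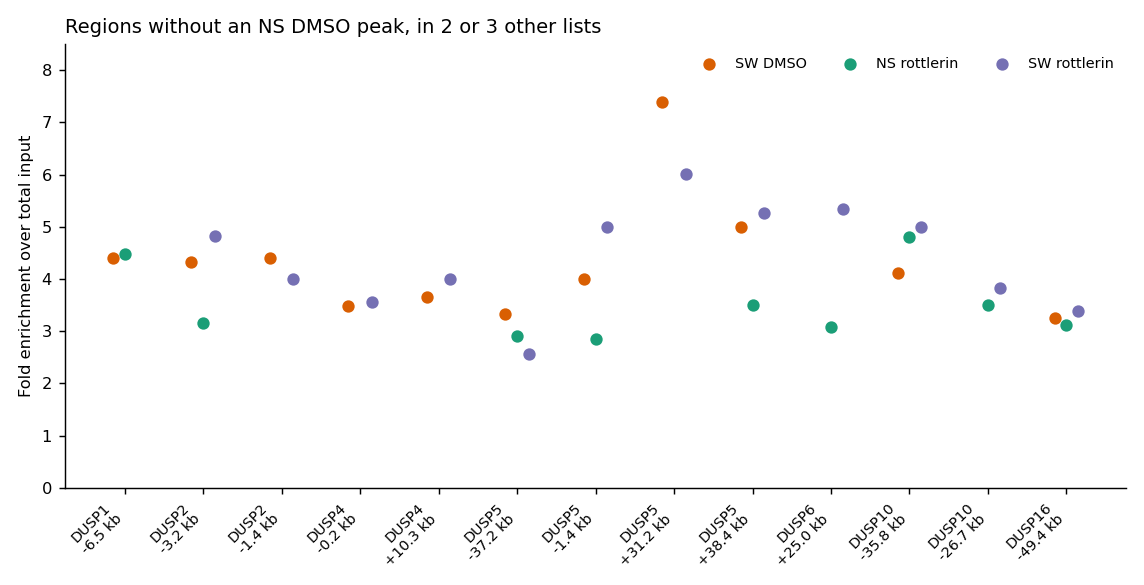
Fold enrichment over total input (y axis, linear from 0) at the 13 DUSP regions without an NS DMSO peak that were called in 2 or 3 of the other lists; a missing point is a list without a peak there, and each point is 1 library. *DUSP5* at 31.2 kb is the highest in SW DMSO (7.38) and in SW rottlerin (6.01).

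The lists were then set side by side at the members, first by which regions were called and then by the fold enrichment of shared regions. Of the 22 DUSP regions called in NS DMSO or SW DMSO, 11 were in SW DMSO only (50.0%, against 28.4% of all regions called in either) and 1 in NS DMSO only (4.55%, against 24.1%). For NS rottlerin these numbers were 16 of 27 (59.3%, against 34.7%) and 1 of 27 (3.7%, against 18.0%), and for SW rottlerin 23 of 34 (67.6%, against 46.3%) and 1 of 34 (2.94%, against 13.9%). The 3 comparisons share the NS DMSO list. Among the 10 DUSP regions that each list shared with NS DMSO, the fold enrichment was at least 1.25 times the NS DMSO value at 1 in SW DMSO (*DUSP2*, 18.9 kb upstream; 8.37% of all shared regions), at 1 in NS rottlerin (*DUSP6*, TSS; 14.5%) and at 3 in SW rottlerin (*DUSP2* at 18.9 kb upstream, *DUSP6* at the TSS and *DUSP10* at 29.2 kb; 18.3%). It was lower by the same factor at 0 in SW DMSO (11.3%), at 2 in NS rottlerin (*DUSP1* at 5.75 kb and *DUSP16* at 1.78 kb; 7.33%) and at 0 in SW rottlerin (7.2%). The median log2 ratio over the 10 regions was 0.06 for SW DMSO, −0.02 for NS rottlerin and 0.11 for SW rottlerin, where all shared regions had −0.03, 0.05 and 0.09.

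Of the 11 DUSP regions in SW DMSO without an NS DMSO peak, 10 were also in SW rottlerin (72.4% of all 7500 such regions) and 7 in NS rottlerin (42.6%). At 4 of the 6 regions called in the 3 other lists but not in NS DMSO, NS rottlerin had the lowest fold enrichment, as it had at 40.7% of all such regions. The exceptions were *DUSP5* at 37.2 kb upstream, where SW rottlerin was lowest, and *DUSP10* at 35.8 kb upstream, where SW DMSO was lowest.

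**Figure D5:**
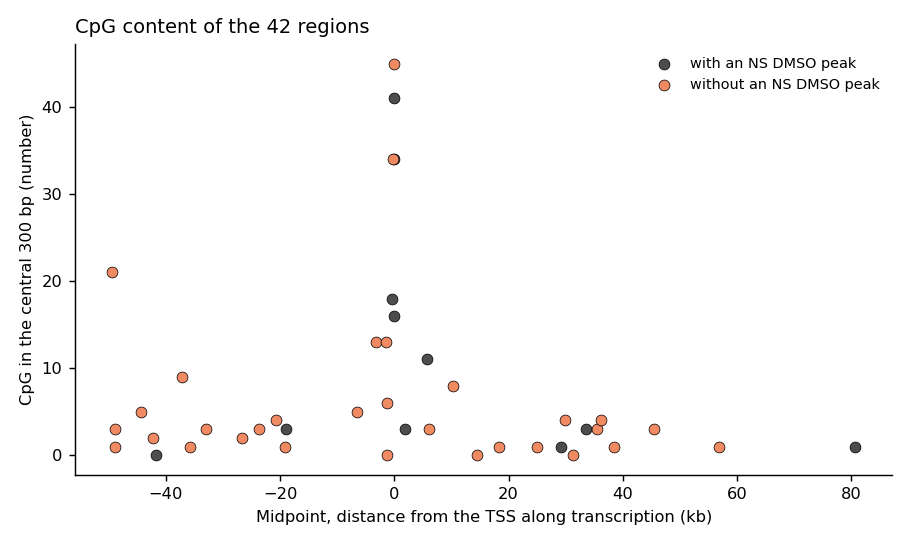
CpG in the central 300 bp (y axis, number) of the 42 DUSP regions against the distance of the midpoint from the TSS along transcription (x axis, kb), for regions with and without an NS DMSO peak. Regions with 16 or more CpG lie at the TSS, except 1 at 49.4 kb upstream of *DUSP16*, which is next to the TSS of *CREBL2*.

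CpG counts were highest in the regions next to a TSS, and the median count was the same with and without an NS DMSO peak. The central 300 bp of the 11 regions with an NS DMSO peak had a median GC content of 52.7% and 3 CpG, and of the 31 without one 47.7% and 3 CpG, where all regions had 50.0% and 6 with an NS DMSO peak, and 44.3% and 3 without. Away from TSSs most regions held few CpG, for example 1 in *DUSP10* at 35.8 kb.

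The same 300 bp were searched on both strands for the letters of motif families of factors that T cell activation engages. In DUSP regions without an NS DMSO peak, the AP1 letters TGANTCA were found in 7 of 31 (22.6%, against 25.8% of all regions without an NS DMSO peak). The NFAT letters TGGAAA were found in 13 (41.9%, against 32.9%), the ETS letters CCGGAAG or CAGGAAG in 10 (32.3%, against 23.7%) and the RUNX letters TGTGGTT in 8 (25.8%, against 16.3%). The NFAT and ETS letters share GGAA. The GATA letters AGATAA were in 7 (22.6%, against 24.8%), the E-box letters CACCTG in 4 (12.9%, against 18.0%), the letters of the NFKB consensus in 1 (3.23%, against 1.57%), the EGR letters GCGNGGGCG in 1 (3.23%, against 2.48%) and the CRE letters TGACGTCA in 0 (0.624%). In the 11 DUSP regions with an NS DMSO peak, AP1 letters were in 1 (9.09%, against 8.84% of all regions with an NS DMSO peak), NFAT letters in 2 (18.2%, against 22.2%), EGR letters in 2 (18.2%, against 5.51%) and RUNX letters in 0 (against 19.4%). With 11 regions, 1 region more or less moves a share by 9.09 percentage points. In the central 500 bp, the share of all 42 DUSP regions with E-box letters was 23.8% rather than 11.9%, and with GATA letters 33.3% rather than 21.4%, where all regions had 32.7% and 30.3%. The AP1 letters occurred at *DUSP1*, *DUSP2*, *DUSP5* and *DUSP10*, and 4 of the 7 matches without an NS DMSO peak were at *DUSP5*. A match describes the letters only and shows no binding.

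Other genes of the DUSP family and genes of the MAP kinase pathways were described from fixed lists. Of the 14 other DUSP genes, 11 had a region without an NS DMSO peak, 0 had one in all 3 other lists and not in NS DMSO, and 7 had a region within 1 kb of the TSS, near the 44.9% of coding genes that had one. *DUSP12* had 10 regions, 5 of them without an NS DMSO peak, whereas *DUSP3* and *DUSP8* had none. In the ERK arm, which runs from the RAF kinases through the MEK kinases (*MAP2K1*, *MAP2K2*) to ERK, 7 of 7 genes had a region without an NS DMSO peak. In the JNK arm this was so for 4 of 5 genes and in the p38 arm for 5 of 6. Among RAS genes and feedback regulators it was 9 of 9, with *SPRED2*, an inhibitor of RAS to ERK signalling, having 12 regions, 8 of them without an NS DMSO peak. Over the 41 genes, 36 had a region without an NS DMSO peak (68.0% of coding genes), 12 had one in NS DMSO alone (17.6%), where the 7 members had none, and 7 had one in the 3 other lists and not in NS DMSO (18.3%). A region could count for more than 1 of these genes. *MAPK11* and *MAPK12* of the p38 arm had identical region counts and summed fold enrichments in every list.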

How the data were processed

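FAIRE-seq was measured in 1 library per group. Per the labels and the study's methods, the authors used CutAdapt for trimming, Bowtie2 for mapping to Hg19, Picard for removal of duplicates and MACS2 with its broad option for peaks against total input, and their versions are not given in the sources used here; HTSeq is also named in the submitters' processing notes. Each deposited list gives a score (column 5), a fold enrichment ratio (column 7) and the −log10 of the p-value and of the q-value (columns 8 and 9). Every deposited peak was kept, and read depth is unknown. Duplicate removal and the broad option affect widths and which neighbouring peaks are joined.

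Peaks on the autosomes, X and Y were merged when they overlapped or touched (28 regions elsewhere were left out), and assigned to genes of GENCODE release 44 on GRCh37. All 7 members were named, other genes from lists, or as the gene with the smallest Euclidean distance in summed column 7 over the 4 lists. The members and lists were chosen with earlier results of these data known. Motif letters were searched on both strands in the central 300 bp. Sequences were read from GRCh37. The sequence of 1 region and the values of 1 gene are not reported here. Alternatives changed the window, start site, joining, peak threshold, list length, overlap, value per region and motif window. Leaving out a list, and comparing overlapping peaks only, were chosen after seeing the data. No test or p-value was computed, and 95% Wilson intervals served only to judge the motif window. On simulated data, 2000 of 2000 planted regions and 450 of 450 planted motifs were recovered. The tools were samtools 1.23.1 and Python 3.11.15 with matplotlib 3.10.9, pysam 0.24.0, pandas 2.3.3 and numpy 2.4.6.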

Additional observations from a re-analysis of the deposited data

Results flagged for a closer look

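At 4 regions the lists labelled DMSO and rottlerin differed in opposite directions between those labelled SW and NS. The difference was not tested, and each list is 1 library. The labels are in doubt, because the merged counts match those the study gives for DMSO samples only. A contrast of DMSO with rottlerin can therefore not be read from these values. The region 6.48 kb upstream of *DUSP1* was called in SW DMSO (fold enrichment 4.41) and not in NS DMSO, and in NS rottlerin (4.47) and not in SW rottlerin. The region 37.2 kb upstream of *DUSP5* was called in SW DMSO (3.34) and not in NS DMSO, and was lower in SW rottlerin (2.56) than in NS rottlerin (2.90). At the *DUSP5* TSS region, the ratio of SW to NS was 1.17 in the DMSO lists and 0.975 in the rottlerin lists. At the *DUSP6* TSS region, it was 1.01 and 0.907. The ratio of 1.01 is close to no change, and 41.6% of the 12550 regions called in both lists had one as high. The score there was 112 in NS DMSO and 111 in SW DMSO.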

How the results depend on the processing

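Over 17 results, 56 alternative values were computed, of which 42 stayed within 1.5 times the count, within 0.1 on the log2 scale with the same sign or, for motif shares, within the 95% Wilson interval of the share. That interval is wide with 42 regions, and with the central 500 bp it held moves of E-box letters from 11.9% to 23.8%, of GATA letters from 21.4% to 33.3% and of NFAT letters from 35.7% to 47.6%. The 42 merged regions became 23 within 20 kb, 64 within 100 kb, 27 with lists of equal length and 19 with the upper 50% of each list by score. The 31 regions without an NS DMSO peak became 13, 16 and 13 (20 kb, equal lists, upper 50%) and 20 without the list labelled SW rottlerin. The 9 regions in all 4 lists became 15 within 100 kb, 5 with the upper 50% and 4 where peaks had to overlap the NS DMSO peak reciprocally by 50%. The 0 regions in NS DMSO alone became 1 with equal lists and 1 with reciprocal overlap. These settings change the regions or peaks that can be counted. The median log2 ratio of SW rottlerin to NS DMSO reversed from 0.105 to −0.011 when each list was divided by its median over regions in all 4 lists. With equal lists, the number of regions without an NS DMSO peak went from 1 to 1 (*DUSP1*), 3 to 2 (*DUSP2*), 4 to 3 (*DUSP4*), 8 to 4 (*DUSP5*), 6 to 1 (*DUSP6*), 4 to 2 (*DUSP10*) and 5 to 3 (*DUSP16*). No paired analysis was possible because each group was 1 library. Unknown depth limits every statement on a missing peak.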

Other observations

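Across the 4 lists, the coding gene whose summed fold enrichment was nearest to that of a member, and that shared no region with it, was *MRE11* for *DUSP1* (distance 0.835), *CRACDL* for *DUSP2* (2.11), *IFNLR1* for *DUSP4* (0.268), *FRMD5* for *DUSP5* (2.52), *CXCR5* for *DUSP6* (1.53), *PGPEP1* for *DUSP10* (2.78) and *ZNF462* for *DUSP16* (1.11). For *DUSP4* the sums were 0 in NS DMSO, 7.14 in SW DMSO, 4.66 in NS rottlerin and 10.6 in SW rottlerin, and for *IFNLR1* 0, 7.18, 4.4 and 10.6. For *DUSP6* they were 4.73, 4.8, 19.5 and 18.5, and for *CXCR5*, which encodes a chemokine receptor of T and B cells, 4.49, 4.48, 20.1 and 19.9. Likeness rests on 4 values per gene.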
